A study of Homo sapiens with 18 samples.

Results

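The comparison asks what the KRAB repressor domain adds to dCas9 that is already held at the globin enhancer HS2 by the guide RNA (gRNA) CR4. It sets 3 libraries of K562 cells that expressed dCas9-KRAB with gRNA CR4 (KRAB_CR4) against 3 libraries of K562 cells that expressed dCas9 with the same gRNA (dCas9_CR4), chosen by their labels, 6 of the 18 RNA-seq libraries of the series. K562 is a human chronic myeloid leukaemia line with erythroid features that makes embryonic and fetal globins. Cells of both groups received a lentivirus with a puromycin resistance gene in the presence of polybrene at 4 µg/ml. Selection in puromycin at 1 µg/ml began about 96 hours later, so the groups share dCas9, gRNA and drug. The lentivirus itself differed between the groups, so the KRAB domain and the virus that carried it cannot be told apart. The labels name no clone, and the cells are read here as drug-selected populations. The other groups, with 3 libraries each, are dCas9-KRAB with gRNA CR10 (KRAB_CR10), dCas9 with gRNA CR10 (dCas9_CR10), dCas9-KRAB without gRNA (KRAB_no_gRNA) and cells without lentivirus (no_lentivirus). No group carried dCas9 without a gRNA. According to the design text each lentivirus was transduced in triplicate, and nothing else is given on how far the cultures were kept apart, so p-values measure the spread between these libraries.

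HS2 is an enhancer of the locus control region, a group of regulatory elements beside the beta-globin cluster on chromosome 11 that drives its genes in erythroid cells. The cluster holds the embryonic gene HBE1, the fetal genes HBG2 and HBG1, the pseudogene HBBP1 and the adult genes HBD and HBB, and the alpha-like globin genes lie in a separate cluster on chromosome 16. dCas9 is a Cas9 that binds DNA where its gRNA leads it and does not cut. The KRAB domain recruits TRIM28, which brings the H3K9 methyltransferase SETDB1 and HP1 proteins to the bound site. K562 cells make little adult beta-globin.

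Of the 6 genes of the cluster, HBD had an entry in the RefSeq promoter table used here. Its 250 bases before the transcription start are shown because HBD was among the genes of the cluster that were lower in KRAB_CR4. They lie at chr11:5234484-5234733 on the minus strand of GRCh38.p14, and capitals mark the letters GATA and CCAAT on either strand.
HBD: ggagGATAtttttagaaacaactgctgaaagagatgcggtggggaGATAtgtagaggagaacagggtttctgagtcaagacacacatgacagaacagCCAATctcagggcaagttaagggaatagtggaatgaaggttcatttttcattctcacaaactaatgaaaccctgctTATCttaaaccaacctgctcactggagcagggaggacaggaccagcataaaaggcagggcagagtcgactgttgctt
GATA, the core of the site that GATA1 recognises, occurs 3 times in this window, and CCAAT occurs once, at -153. Neither CACCC nor TATAAA was found in it on either strand. In all 35116 RefSeq promoter windows of the same length, GATA was present in 45.6%, CCAAT in 32.0%, CACCC in 54.7% and TATAAA in 10.7%.

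With KRAB at CR4, 3 genes of the 14713 tested were called lower, and all 3 were beta-like globin genes, namely HBE1, HBG2 and HBG1. No gene was called higher in the edgeR fit over all 18 libraries, which does not exclude a rise. Values are counts per 1000000 counts of a library (CPM), scaled by the trimmed mean of M-values (TMM), and a gene passed when its Benjamini-Hochberg adjusted p from edgeR's quasi-likelihood test, fitted over all 18 libraries, was below 0.05. The 3 genes are 0.0204% of those tested. DESeq2 called 5 genes (0.034%), 1 of them higher, and at an unadjusted p under 0.05 edgeR had 52 genes higher (0.353%) and 95 lower (0.646%).

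HBE1, the embryonic epsilon-globin gene, had the largest fold change of the genes that passed. It read 55.8, 68.1 and 60.7 CPM in the KRAB_CR4 libraries, against 329, 402 and 346 CPM in the dCas9_CR4 libraries. The highest KRAB_CR4 library was far below the lowest dCas9_CR4 library. The means were 61.6 ± 6.20 CPM in KRAB_CR4 and 359 ± 38.2 CPM in dCas9_CR4 (SD, n = 3 each), a 5.83-fold lower level. On the log2 scale the change was -2.54 with a standard error of 0.14 and an edgeR adjusted p of 1.56e-08. The libraries of the same number differed by -2.56, -2.56 and -2.51 on the log2 scale, so the difference was nearly the same in each pair. In bulk RNA, fewer cells that express a gene and less RNA per cell cannot be told apart.

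The fetal gamma-globin genes fell as well. HBG2 read 246, 259 and 215 CPM in KRAB_CR4, against 725, 916 and 745 CPM in dCas9_CR4. HBG1 read 253, 279 and 237 CPM in KRAB_CR4, against 664, 847 and 680 CPM in dCas9_CR4. For both genes the groups were wide apart and did not overlap. HBG2 was 3.32-fold lower (log2 fold change -1.73, 95% interval -2.08 to -1.38, edgeR adjusted p = 3.104e-05). For HBG1 the fold was 2.85 (log2 fold change -1.51, 95% interval -1.86 to -1.16, edgeR adjusted p = 0.000173). Since the gamma-globin genes are copies of almost the same sequence and how reads that match both were assigned is not given, their separate values are less certain than their sum. The sum averaged 496 ± 43.1 CPM in KRAB_CR4 and 1525 ± 206 CPM in dCas9_CR4 (SD, n = 3 each), 3.07-fold lower.

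**Figure D1:**
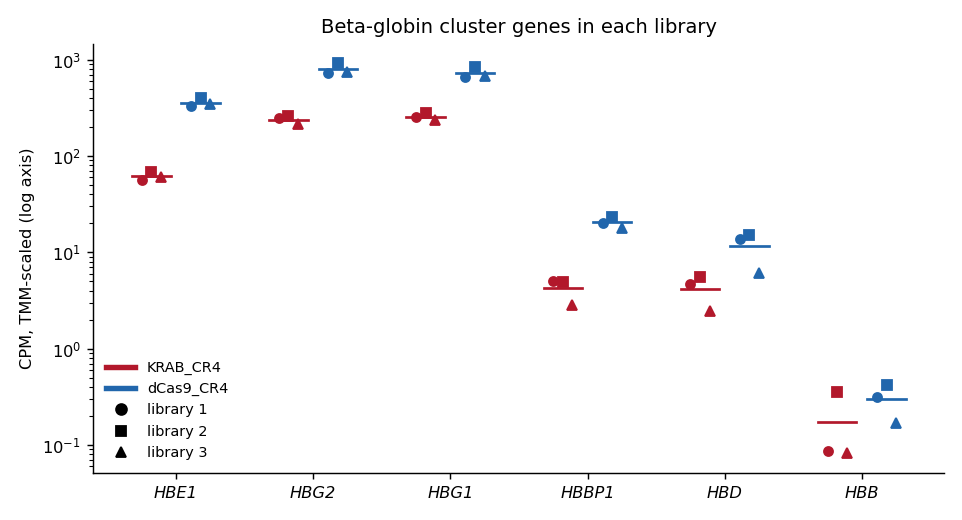
CPM (log axis) of the 6 genes of the beta-globin cluster in each library of KRAB_CR4 (red, left in each pair) and dCas9_CR4 (blue, right), with horizontal lines at the group means. The libraries of the groups do not overlap for HBE1, HBG2, HBG1, HBBP1 and HBD, and overlap for HBB.

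The low-level members of the cluster lay in the same direction, and whether HBBP1 and HBD passed depended on which libraries were fitted, on the block and on the tool. Libraries of the same number deviated together across the lentiviral groups, so a fit of the 15 lentiviral libraries with the number as a block was also made. It called 8 of 14599 genes (0.0548%), 2 higher (0.0137%) and 6 lower (0.0411%), and the lower ones included HBBP1 and HBD beside the 3 named above. The same 15 libraries without the block gave 4 calls (0.0274%), with HBBP1 as the addition. All 18 libraries with the block gave HBE1, HBG2 and HBG1 alone. In edgeR the call of HBBP1 thus rested on leaving out the no_lentivirus libraries. The other further calls of the blocked fit rested on that and on the block. DESeq2 over all 18 libraries without the block called HBBP1, and also PCSK1N, which is described below.

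HBBP1, a pseudogene between the gamma and delta genes, read 5.10, 4.95 and 2.85 CPM in KRAB_CR4, against 20.2, 23.6 and 17.9 CPM in dCas9_CR4. Each dCas9_CR4 library was more than 3 times as high as any KRAB_CR4 library. The log2 fold change was -2.26 with an edgeR adjusted p of 0.403, and -2.27 with the block (edgeR adjusted p = 9.68e-09). HBBP1 passed in DESeq2 also, with an adjusted p of 0.000570. HBD, the adult delta-globin gene, read 4.67, 5.49 and 2.45 CPM in KRAB_CR4, against 13.7, 15.1 and 6.13 CPM in dCas9_CR4. Library 3 was the lowest of its group in both, and the groups did not overlap. The log2 fold change of HBD was -1.48 (edgeR adjusted p = 1.00), and -1.45 with the block (edgeR adjusted p = 0.000164). HBB, the adult beta-globin gene, was too low to compare, with 2, 8 and 2 counts in KRAB_CR4 and 10, 12 and 4 counts in dCas9_CR4. Its log2 fold change was -0.81 with a 95% interval of -2.33 to 0.72.

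No change was detected in the alpha-like globin genes. HBA1, an adult alpha-globin gene, read 503, 501 and 413 CPM in KRAB_CR4, against 388, 517 and 384 CPM in dCas9_CR4. The ranges overlapped, and the log2 fold change was 0.14 with a 95% interval of -0.29 to 0.57. HBA2, its near-identical copy, averaged 414 ± 58.5 CPM in KRAB_CR4 and 375 ± 70.6 CPM in dCas9_CR4 (SD, n = 3 each). HBZ, the embryonic zeta-globin gene, averaged 305 ± 58.1 CPM in KRAB_CR4 and 285 ± 59.4 CPM in dCas9_CR4 (SD, n = 3 each). Its log2 fold change was 0.09, and it was -0.03 both without KRAB_CR4 library 1 and without dCas9_CR4 library 3. HBQ1, the theta-globin gene, was at 9.20 ± 2.30 CPM in KRAB_CR4 and 11.2 ± 1.71 CPM in dCas9_CR4 (SD, n = 3 each). HBM, the mu-globin gene, had counts in 1 of the 6 libraries and was not tested. None of the 4 alpha-like genes tested passed in edgeR, with or without the block, or in DESeq2, and none had an unadjusted p under 0.05 in edgeR.

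The balance between alpha-like and beta-like transcripts was compared next. The beta-like genes HBE1, HBG2 and HBG1 summed to 555, 606 and 513 CPM in KRAB_CR4, against 1718, 2164 and 1771 CPM in dCas9_CR4. The alpha-like genes HBA1, HBA2 and HBZ summed to 1191 ± 166 CPM in KRAB_CR4 and 1090 ± 200 CPM in dCas9_CR4 (SD, n = 3 each). The ratio of alpha-like to beta-like CPM was 2.13 ± 0.201 in KRAB_CR4 and 0.576 ± 0.0421 in dCas9_CR4 (SD, n = 3 each). Within the beta-like sum HBE1 gave 10.1%, 11.2% and 11.8% of the counts in KRAB_CR4, against 19.1%, 18.6% and 19.5% in dCas9_CR4, without overlap. The share of HBG2 in the gamma-globin counts was 49.2%, 48.1% and 47.5% in KRAB_CR4, against 52.2%, 52.0% and 52.3% in dCas9_CR4. In a two-sided exact permutation test the p was 0.1 for each of these measures except the alpha-like sum (exact permutation p = 0.7), and 0.1 is the smallest that 3 libraries against 3 can give. Adjusted over the 7 measures computed, these p-values were 0.117 and 0.7.

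**Figure D2:**
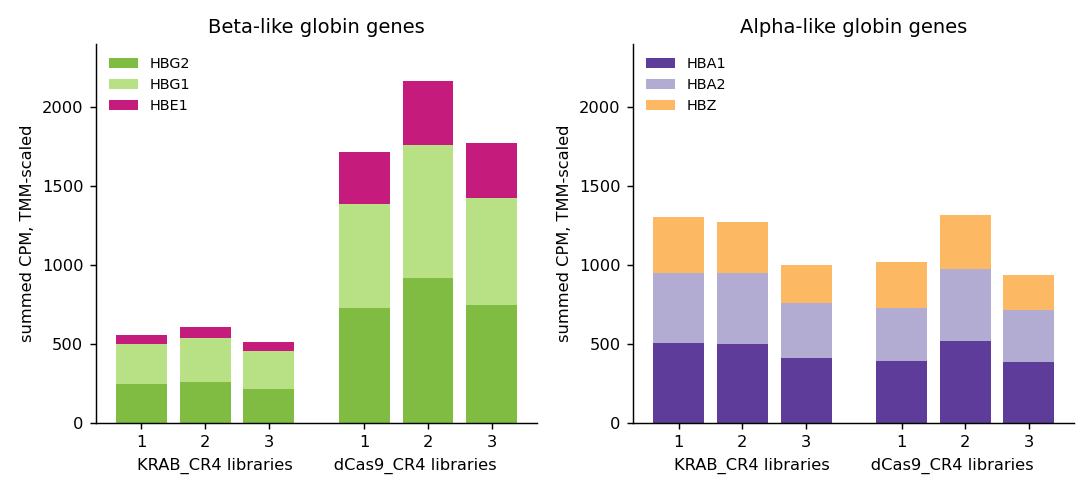
Summed CPM of the beta-like genes HBE1, HBG2 and HBG1 (left panel) and the alpha-like genes HBA1, HBA2 and HBZ (right panel) in each library, with KRAB_CR4 libraries left of dCas9_CR4 libraries and both axes from 0. The beta-like sums lie between 513 and 606 CPM in KRAB_CR4 and between 1718 and 2164 CPM in dCas9_CR4, while the alpha-like sums overlap.

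No change was detected in the genes that flank the cluster. The 20 tested genes on either side of the cluster in gene order were compared, 40 in all, and 0 passed in edgeR over all 18 libraries or in the lentiviral fit with the block. DESeq2 called none of them, and none reached an unadjusted p under 0.05 over all 18 libraries. In the 6 compared libraries alone with the block, 1 of them was called higher, the non-coding RNA gene KCNQ1OT1 near the far end of this range, with a log2 fold change of 0.60 (edgeR adjusted p = 0.0144). That fit called 25 of 13848 genes. Over all 18 libraries, the median log2 fold change of the 40 neighbours was 0.00, against -0.01 over all genes tested. The values of the neighbours ran from -0.45 to 1.28. For 25 of the 40 the 95% interval lay within a 2-fold change in either direction. OR51B4, the olfactory receptor gene next to HBE1 in this order, averaged 29.2 CPM in KRAB_CR4 and 27.8 CPM in dCas9_CR4 (log2 fold change 0.07, 95% interval -0.35 to 0.49). OR51B5, another olfactory receptor gene on that side, averaged 78.0 CPM in KRAB_CR4 and 79.4 CPM in dCas9_CR4 (log2 fold change -0.03, 95% interval -0.53 to 0.48). On the side of HBB the nearest tested gene, OR51E2, was under 1 CPM in both groups. TRIM68, the next gene there, averaged 19.4 CPM in KRAB_CR4 and 22.4 CPM in dCas9_CR4 (log2 fold change -0.21, 95% interval -0.57 to 0.15). RRM1, a subunit of ribonucleotide reductase, averaged 317 CPM in KRAB_CR4 and 304 CPM in dCas9_CR4 (log2 fold change 0.06, 95% interval -0.22 to 0.34). STIM1, a calcium sensor of the endoplasmic reticulum, was at -0.05 on the log2 scale with a 95% interval of -0.34 to 0.23. TRIM21 was the 1 neighbour whose groups did not overlap, at 16.2 CPM in KRAB_CR4 and 14.5 CPM in dCas9_CR4. Across all genes tested, 249 (1.69%) lay higher in every KRAB_CR4 library than in any dCas9_CR4 library, and 317 (2.15%) lay lower.

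**Figure D3:**
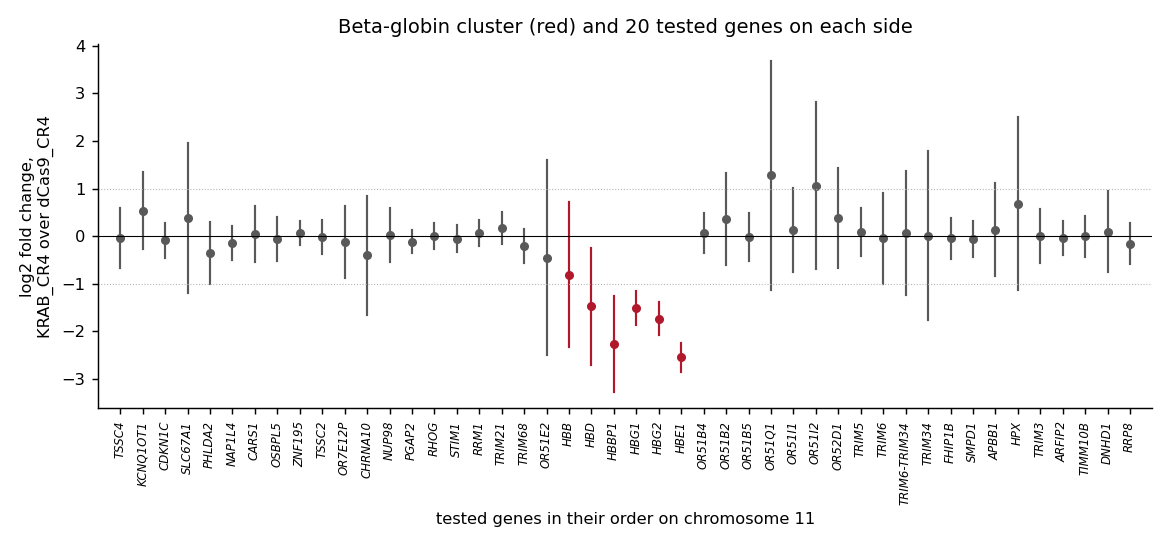
Log2 fold change of KRAB_CR4 over dCas9_CR4 (points) with 95% intervals (lines) for the beta-globin cluster (red) and the 20 tested genes on each side (grey), in their order on chromosome 11. The values of the cluster run from -0.81 for HBB to -2.54 for HBE1, and the interval of every neighbour includes 0.

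Beyond the globin genes, 3 more genes passed in the 15 lentiviral libraries with the block, and none of them passed in all 18 libraries with the block. ACSM3, a mitochondrial medium-chain acyl-CoA synthetase, read 104, 94.3 and 277 CPM in KRAB_CR4, against 39.0, 41.3 and 103 CPM in dCas9_CR4. Library 3 was the highest of both groups, and dCas9_CR4 library 3 lay above KRAB_CR4 library 2, so the groups overlapped. Within pairs of the same number KRAB_CR4 was higher by 1.42, 1.19 and 1.43 on the log2 scale. The log2 fold change was 1.38 with a 95% interval of 0.01 to 2.75 (edgeR adjusted p = 1.00), and 1.36 with the block (edgeR adjusted p = 9.31e-07). Both RefSeq transcripts counted for ACSM3 were higher on average, at 98.9 and 59.6 CPM in KRAB_CR4 and 38.2 and 22.8 CPM in dCas9_CR4. ACSM3 overlaps ACSM1, THUMPD1 and ERI2 in the annotation, and the library preparation does not mark strand, so shared reads cannot be told apart. THUMPD1 was at 0.38 on the log2 scale (95% interval 0.02 to 0.73), ERI2 at 0.07 and ACSM1 at 0.15.

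PCSK1N, the precursor of a peptide inhibitor of the convertase PCSK1, read 1.47, 2.57 and 3.097 CPM in KRAB_CR4, against 0.443, 0.557 and 0.336 CPM in dCas9_CR4. These are 34, 58 and 76 counts in KRAB_CR4 and 14, 16 and 8 counts in dCas9_CR4, and the groups did not overlap. The log2 fold change was 2.40 (edgeR adjusted p = 0.403), and 2.41 with the block (edgeR adjusted p = 0.0164). DESeq2 gave PCSK1N an adjusted p of 0.00102. TM2D3, a membrane protein gene, read 24.9, 26.5 and 21.9 CPM in KRAB_CR4, against 36.6, 40.98 and 32.3 CPM in dCas9_CR4. All KRAB_CR4 libraries were lower, and the fold was 1.501. The log2 fold change was -0.59 (edgeR adjusted p = 1.00), and -0.58 with the block (edgeR adjusted p = 0.0463). The blocked fit was repeated with 1 replicate number or 1 of the 6 libraries left out. ACSM3, HBBP1, HBD, HBE1, HBG2 and HBG1 passed in 9 of 9 fits, PCSK1N in 1 of 9 and TM2D3 in 0 of 9. The blocked edgeR adjusted p in these fits ran from 0.00240 to 0.376 for PCSK1N and from 0.140 to 1.00 for TM2D3. PCSK1N passed only in the fit without KRAB_CR4 library 1, so leaving out any of the other libraries or any replicate number ended its call.

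**Figure D4:**
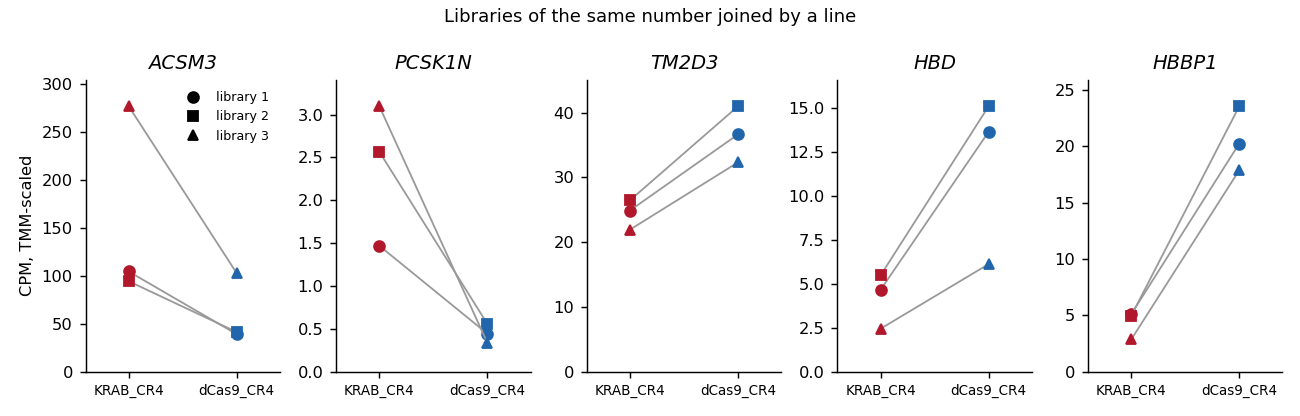
CPM, from 0, of ACSM3, PCSK1N, TM2D3, HBD and HBBP1 in KRAB_CR4 (red, left) and dCas9_CR4 (blue, right), with a line joining libraries of the same number. Every line rises towards KRAB_CR4 for ACSM3 and PCSK1N and falls towards it for TM2D3, HBD and HBBP1, and the ACSM3 libraries numbered 3 stand above the others in both groups.

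The levels in the other groups are given for comparison. ACSM3 read 83.8, 91.2 and 216 CPM in KRAB_CR10, against 33.0, 38.4 and 129 CPM in dCas9_CR10, again higher with KRAB in each same-numbered pair and with overlap between the groups. It varied from 49.6 to 127 CPM in KRAB_no_gRNA and from 99.4 to 394 CPM in no_lentivirus. PCSK1N averaged 2.47 ± 0.851 CPM in KRAB_CR10, 0.328 ± 0.146 CPM in dCas9_CR10, 0.961 ± 0.311 CPM in KRAB_no_gRNA and 0.0615 ± 0.0620 CPM in no_lentivirus (SD, n = 3 each). TM2D3 averaged 23.9 ± 0.639 CPM in KRAB_CR10, 31.8 ± 2.69 CPM in dCas9_CR10, 26.7 ± 4.55 CPM in KRAB_no_gRNA and 25.5 ± 4.26 CPM in no_lentivirus (SD, n = 3 each). For TM2D3 the dCas9_CR4 mean was therefore the highest of the 6 groups. HBBP1 averaged 7.75 CPM in KRAB_CR10, 21.4 CPM in dCas9_CR10 and 23.2 CPM in KRAB_no_gRNA. HBD averaged 5.73, 11.7 and 13.7 CPM in the same groups. In the no_lentivirus libraries HBBP1 read 42.4, 5.76 and 30.8 CPM, and HBD read 18.4, 2.98 and 13.9 CPM. Library 2 of no_lentivirus thus lay close to the KRAB_CR4 range for HBBP1 and within it for HBD.

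The remaining genes with the smallest p-values outside the globin lists were mostly of low level, and none passed in any fit of all 18 libraries. MS4A4A, a membrane protein gene of the MS4A cluster, read 3.28, 3.097 and 4.24 CPM in KRAB_CR4, against 1.14, 1.95 and 1.34 CPM in dCas9_CR4 (log2 fold change 1.26, edgeR adjusted p = 0.910). Its groups did not overlap. CD8A, a T cell co-receptor chain, had 0, 4 and 2 counts in KRAB_CR4, against 54, 28 and 10 counts in dCas9_CR4. It had 0 counts in every no_lentivirus library. Its means were 0.624 CPM in KRAB_no_gRNA, 0.809 CPM in KRAB_CR10 and 1.51 CPM in dCas9_CR10, and the CR10 groups overlapped. SERPINB8, a serine protease inhibitor gene, had 0 counts in all KRAB_CR4 libraries and 14, 12 and 2 counts in dCas9_CR4. The dCas9_CR4 mean was 2.46 times a floor of 3 counts per library, and its library with 2 counts lay below that floor. The floor covers counting error only. TM2D1, ZNF229, TREX2, UXT-AS1 and AGBL2 were the other genes of this group. TM2D1 averaged 10.4 ± 1.00 CPM in KRAB_CR4 and 14.3 ± 0.771 CPM in dCas9_CR4 (SD, n = 3 each). ZNF229, a zinc finger gene, averaged 3.47 ± 0.682 CPM in KRAB_CR4 and 5.91 ± 0.521 CPM in dCas9_CR4 (SD, n = 3 each). The other 3 were below 1 CPM in every library of both groups, with AGBL2 higher and TREX2 and UXT-AS1 lower in KRAB_CR4. MS4A4A and CD8A were among 25 genes called in the 6 compared libraries alone with the block, with edgeR adjusted p of 0.0184 and 0.00456. UXT-AS1 overlaps UXT in the annotation, and their reads cannot be told apart.

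**Figure D5:**
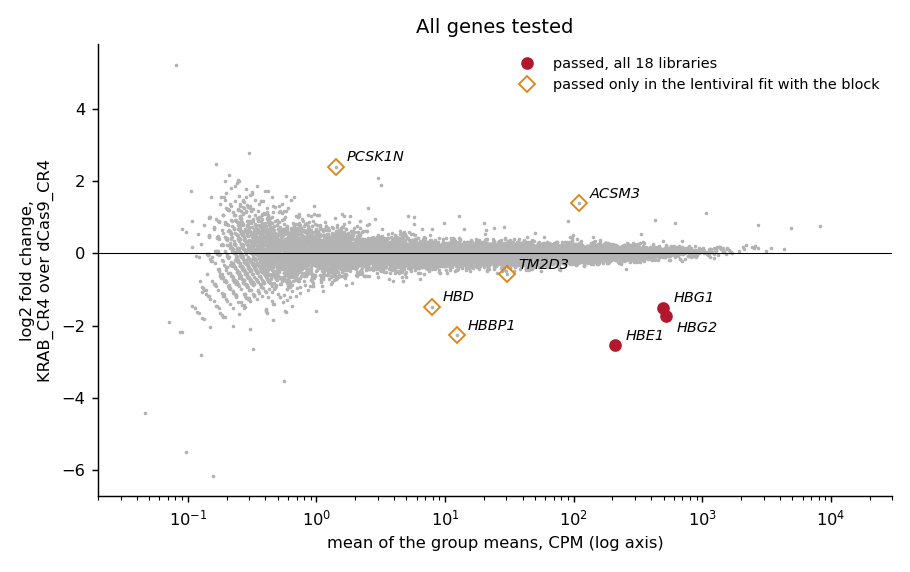
Log2 fold change of KRAB_CR4 over dCas9_CR4 against the mean of both group means in CPM (log axis) for all 14713 genes tested. Filled red points passed in edgeR over all 18 libraries (HBE1, HBG2 and HBG1). Open diamonds passed in the lentiviral edgeR fit with the replicate block and not in the former fit (HBBP1, HBD, ACSM3, PCSK1N and TM2D3). HBBP1 and PCSK1N also passed in DESeq2. The spread of the other genes widens below 1 CPM.

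How large a change could have been missed was read from the 95% intervals. They lay within a 2-fold change in either direction for 11200 of the 14713 genes (76.1%). The share was 98.6% at 100 CPM and over, 97.2% from 10 to 100 CPM, 62.3% from 1 to 10 CPM and 3.13% under 1 CPM. The intervals were thus narrow for expressed genes and wide for rare transcripts.

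Genes of the red cell pathway outside the beta-globin cluster were read from lists of known members. All 13 haem synthesis genes tested had intervals within 2-fold, with a median log2 fold change of -0.10 against -0.01 over all genes tested. UROD, uroporphyrinogen decarboxylase, averaged 412 ± 28.8 CPM in KRAB_CR4 and 405 ± 55.4 CPM in dCas9_CR4 (SD, n = 3 each). The 13 iron genes had a median of -0.01, and TFRC, the transferrin receptor, averaged 1093 ± 303 CPM in KRAB_CR4 and 1178 ± 254 CPM in dCas9_CR4 (SD, n = 3 each), with a log2 interval of -0.81 to 0.59. The 26 genes of the red cell membrane and its antigens had a median of -0.02. RHAG, the Rh-associated glycoprotein, averaged 505 ± 39.4 CPM in KRAB_CR4 and 509 ± 31.4 CPM in dCas9_CR4 (SD, n = 3 each). GYPB, glycophorin B, averaged 14.2 ± 1.57 CPM in KRAB_CR4 and 18.5 ± 3.69 CPM in dCas9_CR4 (SD, n = 3 each), without overlap, and its log2 interval of -0.85 to 0.08 included 0. Of these 52 genes, 0 passed in edgeR with or without the block, DESeq2 called none, and 0 had an unadjusted p under 0.05. The carbonic anhydrase list had 2 of 7 tested genes higher at an unadjusted p under 0.05 in edgeR, against 0.353% of all genes, and 0 that passed. The lists were chosen with earlier results of these data known, so this share is no test of the list. Its log2 fold changes ran from -0.81 for CA2 to 2.04 for CA14, with a median of 0.07. CA1, the red cell carbonic anhydrase, averaged 13.3 ± 1.92 CPM in KRAB_CR4 and 9.97 ± 1.45 CPM in dCas9_CR4 (SD, n = 3 each), with overlap, and CA14 was under 1 CPM in every library of both groups.

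No change was detected in the factors that act at HS2 or in those that KRAB recruits. All 22 erythroid and HS2-binding factors tested had log2 intervals within 2-fold, with values from -0.20 to 0.15 and a median of -0.01. GATA1, the erythroid GATA factor, ranged from 220 to 244 CPM in KRAB_CR4 and from 193 to 240 CPM in dCas9_CR4. NFE2, which binds HS2 as part of NF-E2, averaged 227 ± 13.9 CPM in KRAB_CR4 and 234 ± 17.4 CPM in dCas9_CR4 (SD, n = 3 each). The 24 regulators of fetal globin switching that were tested had a median of 0.00 and 24 intervals within 2-fold. BCL11A, a repressor of the gamma-globin genes, had too few counts to be tested. The 23 KRAB co-repressor genes had values from -0.20 to 0.28 and 23 intervals within 2-fold. TRIM28 averaged 989 ± 115 CPM in KRAB_CR4 and 953 ± 122 CPM in dCas9_CR4 (SD, n = 3 each). SETDB1 was at 0.14 on the log2 scale, with a 95% interval of -0.20 to 0.48. ZNF10, the gene from which the KRAB domain in common use was taken, read 9.93, 7.25 and 5.79 CPM in KRAB_CR4, against 6.52, 6.90 and 5.54 CPM in dCas9_CR4. Its groups overlapped, with a log2 fold change of 0.28 (95% interval -0.17 to 0.72), and whether any of its counts come from the transgene cannot be read from a gene total. Of these factors none passed in edgeR with or without the block or in DESeq2, and 0 had an unadjusted p under 0.05 in edgeR.

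Lists of other cell programmes held few values that stood out. Cell cycle genes had a median log2 fold change of 0.00, with 32 of 32 intervals within 2-fold. Cytosolic ribosomal protein genes had a median of -0.04, with 39 of 39 intervals within 2-fold. Sterol synthesis genes had a median of 0.03 and 23 of 24 intervals within 2-fold. Immediate early genes had a median of -0.12, and MYC averaged 387 ± 36.9 CPM in KRAB_CR4 and 420 ± 40.4 CPM in dCas9_CR4 (SD, n = 3 each). Histone genes, KRAB zinc finger genes, p53 targets and genes of the unfolded protein and amino acid responses had medians of -0.03, 0.04, 0.08 and 0.09. HSPA5, the main chaperone of the endoplasmic reticulum, averaged 702 ± 53.5 CPM in KRAB_CR4 and 613 ± 16.9 CPM in dCas9_CR4 (SD, n = 3 each), without overlap, at 0.20 on the log2 scale with an interval of -0.25 to 0.64. The interferon response list had a median of 0.10, and IFIT1, an interferon-induced RNA-binding protein, averaged 0.341 ± 0.147 CPM in KRAB_CR4 and 0.770 ± 0.148 CPM in dCas9_CR4 (SD, n = 3 each). APOBEC3B, a cytidine deaminase, averaged 67.6 ± 14.4 CPM in KRAB_CR4 and 49.2 ± 9.79 CPM in dCas9_CR4 (SD, n = 3 each), without overlap, at 0.46 on the log2 scale with an interval of 0.01 to 0.91. In the hypoxia and glycolysis list GAPDH averaged 2342 ± 219 CPM in KRAB_CR4 and 1996 ± 312 CPM in dCas9_CR4 (SD, n = 3 each), and NDRG1 was at 0.85 with an interval of 0.04 to 1.66. In the leukocyte list MS4A4A and CD8A, given above, lay in opposite directions. Outside the beta-globin cluster, 472 members of the 26 lists were tested and 0 passed over all 18 libraries in edgeR. DESeq2 called 1 of them (PCSK1N), and 2 passed with the block (ACSM3 and PCSK1N). At an unadjusted p under 0.05, 7 were higher and 2 lower in KRAB_CR4, beside 0.353% and 0.646% of all genes tested, and CA1, CA14, APOBEC3B, NDRG1, MS4A4A, PCSK1N and ACSM3 were the higher and IFIT1 and CD8A the lower ones. Since the lists were chosen with earlier results of these data known, these counts are no test of the lists.

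The effect of KRAB at CR4 was set against that at the second gRNA, CR10, by the difference of the fold changes. HBE1 averaged 61.6 CPM in KRAB_CR4 and 359 CPM in dCas9_CR4, and 84.9 ± 10.95 CPM in KRAB_CR10 and 381 ± 46.7 CPM in dCas9_CR10 (SD, n = 3 each). The difference of the log2 fold changes, CR4 minus CR10, was -0.38 with a 95% interval of -0.78 to 0.03. For HBG2 it was -0.57 (95% interval -1.05 to -0.09), and for HBG1 it was -0.49 (95% interval -0.97 to -0.0045). All 3 point estimates lay towards a larger fall with CR4. Their unadjusted p-values from edgeR were 0.0571, 0.0183 and 0.0419, and the adjusted p was 1.00 for each. In the lentiviral libraries with the block, the unadjusted p-values were 0.0127, 0.000363 and 0.00118, and the adjusted p was again 1.00 for each. For HBE1 the blocked difference was -0.39 with a standard error of 0.14. Each of HBE1, HBG2, HBG1 and HBBP1 was lower in every KRAB_CR4 library than in any KRAB_CR10 library. How many of all genes separate these groups in this way was not counted. CD8A was also lower and MS4A4A higher without overlap, while HBD, ACSM3, PCSK1N and TM2D3 overlapped. Over all genes edgeR called 0 differences (0%) with or without the block, DESeq2 called 0, and 51 genes (0.347%) had an unadjusted p under 0.05. A difference between the gRNAs was therefore not detected after adjustment over all genes. In the groups without a gRNA for HS2, HBE1 averaged 457 ± 17.8 CPM in KRAB_no_gRNA and 604 ± 62.4 CPM in no_lentivirus (SD, n = 3 each). Both means were above those of dCas9_CR4 and dCas9_CR10.

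The 6 libraries held 22805964 to 32364862 counts each, every count being even and read here as 2 per sequenced fragment, and the 18 libraries held 22805964 to 34032962. KRAB_CR4 library 2 stood apart in several non-coding RNAs. Ribosomal RNA was 4.02% of its counts and 0.57% to 1.496% in the other 5. RN7SK, a small nuclear RNA, read 43.4 CPM in it and 2.33 to 10.9 CPM in the other 5, and RN7SL1 and RN7SL2, the RNAs of the signal recognition particle, summed to 148 CPM in it and 16.4 to 59.6 CPM in the other 5. Transcripts of the MTRNR2L genes, which resemble mitochondrial ribosomal RNA, summed to 1276, 1333 and 1987 CPM in KRAB_CR4, against 363, 706 and 1458 CPM in dCas9_CR4. MALAT1, a nuclear non-coding RNA, read 617, 1946 and 1801 CPM in KRAB_CR4, against 207, 472 and 1339 CPM in dCas9_CR4. Both were higher in KRAB_CR4 within each pair and overlapped between the groups. Neither MALAT1 nor an MTRNR2L gene passed over all 18 libraries or in the lentiviral fit with the block, while MALAT1 and 6 MTRNR2L genes were called higher in the 6 libraries alone with the block. Their part in the results for ACSM3, PCSK1N and TM2D3 was not tested. Erythroid markers of the line were present in all 6 libraries. The 10 erythroid markers summed to 2462 to 3358 CPM in KRAB_CR4 and 3866 to 4812 CPM in dCas9_CR4, without overlap. They include HBE1, HBG2 and HBG1, the 3 that passed. KLF1, an erythroid transcription factor, was at 92.9 to 128 CPM in KRAB_CR4 and 95.2 to 138 CPM in dCas9_CR4. ALAS2, the erythroid enzyme that starts haem synthesis, was at 29.7 to 41.9 CPM in KRAB_CR4 and 33.2 to 41.2 CPM in dCas9_CR4. The 5 megakaryocytic markers summed to 28.6 to 38.2 CPM in KRAB_CR4 and 27.9 to 45.7 CPM in dCas9_CR4, with GP9 and PF4 at 0. The 5 myeloid markers summed to 7.08 to 18.2 CPM in KRAB_CR4 and 6.45 to 14.6 CPM in dCas9_CR4. The 4 lymphoid markers summed to 1.04 to 2.28 CPM in KRAB_CR4 and 1.85 to 2.44 CPM in dCas9_CR4, with MS4A1 at 0. The 5 fibroblast or epithelial markers, mostly KRT8 and KRT18, summed to 1023 to 1050 CPM in KRAB_CR4 and 851 to 1140 CPM in dCas9_CR4.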

How the data were processed

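Poly(A) RNA of K562 cells was made into libraries by tagmentation, per the labels' protocols. The authors deposited raw counts per RefSeq transcript for each library. Tools listed in the submitters' processing notes, with no role given, are DESeq, Picard, SAMtools, Bowtie2 and R 3.1.2, and the build is hg19. Every deposited count was even, read here as 2 counts per sequenced fragment. Transcript counts were summed per gene, and names came from RefSeq (GRCh38.p14), matched by accession for 39324 of 40709 rows, from GENCODE for 517, or stayed as deposited for 868. Gene order, not coordinates, was taken from that build, and the promoter sequence is from its RefSeq table.

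Counts were filtered with filterByExpr (14713 of 24395 genes kept), scaled by TMM and fitted with edgeR 4.0.16 (quasi-likelihood test, limma 3.58.1, R 4.3.3) as 6 group means over all 18 libraries, with a threshold of 0.05 after Benjamini-Hochberg adjustment over all genes. Intervals are 95%, from the test's standard error with 12 residual degrees of freedom. DESeq2 1.42.0 was an alternative, with other filters, size factors, library sets and left-out libraries. The overall biological coefficient of variation was 21.6%. The scripts were tested on simulated counts.

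The replicate numbers come from the titles. Deviations from the group means over 12604 genes correlated at 0.230 to 0.728 for the 3 same-numbered pairs of KRAB_CR4 and dCas9_CR4, and at 0.150 to 0.845 for all 30 same-numbered lentiviral pairs, each above 0.1. Different-numbered lentiviral pairs ran from -0.706 to 0.567, and 18 of 60 were above 0.1. Between KRAB_CR4 and dCas9_CR4, 2 of 6 such pairs were above 0.1, up to 0.416. A value above 0.1 was thus not particular to the same number. The numbers were taken to pair the lentiviral libraries because every same-numbered pair was above 0.1. Blocked values are given where they change a call.

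Genes named were all globin genes and ZNF10, genes that passed in either fit, the 10 with the smallest p outside the globin lists, and per list the 2 most expressed members and the one with the smallest p, with others as context, such as ribosomal and MTRNR2L RNAs, neighbours and markers, picked after their values were seen. Members and lists were chosen with earlier results of these data known.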

Additional observations from a re-analysis of the deposited data

How the results depend on the processing

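HBE1, HBG2 and HBG1 kept their direction and passed in all 27 alternatives, with log2 fold changes of -2.62 to -2.46, -1.80 to -1.62 and -1.58 to -1.39, and edgeR adjusted p up to 0.00012, 0.00196 and 0.00455. The 3 calls (0 higher, 3 lower) became 5 with DESeq2 (1 higher), 8 in the 15 lentiviral libraries with the replicate block (2 higher, 6 lower), 6 in the lentiviral libraries numbered 1 and 2 (1 higher, 5 lower) and 25 in the 6 compared libraries alone with the replicate block (18 higher, 7 lower). Those 25, of 13848 genes tested in that fit, include all 8 of the lentiviral blocked fit. The other 17 are 16 higher, 6 of them MTRNR2L genes, and 1 lower. Leaving out 1 library without the block always gave the same 3 genes. With the block, leaving out 1 replicate number or 1 library gave 6 to 9 calls, 1 to 2 higher and 5 to 7 lower, and the difference between CR4 and CR10 ranged from 0 to 2 calls (RN7SL1 and RN7SL2, without replicate 2). HBZ ranged from -0.0300 to 0.250 when 1 library was left out, turning to -0.0300 without dCas9_CR4 library 3 and to -0.0289 without KRAB_CR4 library 1; the cause was not tested. In the 15 lentiviral libraries the block changed no other call than HBD, ACSM3, PCSK1N and TM2D3. ACSM3 ranged from 0.71 to 2.00 over all alternatives. Genes with intervals within 2-fold numbered 10160 to 12556. Depth limits what can be said below 1 CPM.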
